A study of Mus musculus with 6 samples.

Results

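Immediate early genes and the subunits of the transcription factor AP-1 were followed in naive B cells of the mouse spleen, with 3 RNA-seq libraries for a TET2 knockout and 3 for TET2 wild type. The set holds 32 genes chosen by symbol, out of 41053 gene names in the table, and heat-shock genes are not in it. The choice was made with earlier results of these data known. Counts of members beside shares of all genes are therefore a description. All 32 were found, and 30 passed the filter on low counts and were tested; Fosl2 and Ier3, with 2 to 5 and 0 to 3 counts in each library, did not. TET2 oxidizes 5-methylcytosine in DNA, and the comparison asks which transcripts differ when it is lost. Both groups are of the C57BL/6 strain, with no treatment, and libraries are numbered 2, 3 and 4 in each genotype. The part of Tet2 that is deleted, and the animals' age and sex, are not given in the sources used here, and neither is the number of animals behind each library. The spread behind each p-value is thus that of these libraries and may be technical only.

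Immediate early genes are transcribed within minutes of a stimulus, without new protein synthesis, from promoters that are already open. Signals through MAP kinases, calcium and cAMP reach them through the serum response factor SRF, which binds a sequence called the CArG box, and through CREB, which binds the cAMP response element (CRE). Many encode transcription factors: FOS and JUN proteins pair through leucine zippers to form AP-1, and EGR, KLF and NR4A proteins bind sites of their own. Others end the response, among them the DUSP phosphatases that switch off MAP kinases and the ZFP36 proteins that bring unstable mRNAs to decay. In B cells these genes respond to antigen receptor signals.

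Promoter sequences are shown for members in which short matches to such response elements were found. Of the 32 genes, 26 matched the RefSeq promoter table (GRCm38.p6, 250 bases before to 50 after each start), with 35 promoters in all; Egr1, Egr3, Ier2, Cd69, Rgs1 and Zfp36l2 had no entry. The CArG box was searched on both strands and found in 6 of the 35 member promoters (17.1%) and in 1.63% of all 32851 promoters. These 6 belong to 3 genes, namely Egr2 at 4 of its 5 starts, Dusp5 and Zfp36. The CRE, TGACGTCA, was found in 4 of 35 (11.4%) and in 1.79% of all, namely in Btg2, Dusp1, Maff and Ppp1r15a. The AP-1 site TGANTCA was in 2 of 35 (5.71%) against 7.81% of all, the EGR site GCGTGGGCG in 1 of 35 (2.86%) against 0.612%, and the TATA box TATAAA in 6 of 35 (17.1%) against 13.6%. The 5 motifs were searched on both strands, and TGANTCA has no match within TGACGTCA. The median GC content was 63.0% in member promoters and 52.7% in all. A match is a description of letters and not of binding.

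The sequences below end at the start site or where an exon of the deposited table begins, and capitals mark the matches: the CArG box in Zfp36, Egr2 and Dusp5, the CRE in Dusp1 and the TATA box in Fos. Fos and Dusp1 were added after their values were seen. The last base of the match lies 49 bases before the RefSeq start in Zfp36, 63 in Egr2, 73 and 63 in Dusp5, 136 in Dusp1 and 28 in Fos. Positions are on GRCm38.p6, and Zfp36 and Dusp1 are on the minus strand.
Zfp36, chr7:28379256-28379478: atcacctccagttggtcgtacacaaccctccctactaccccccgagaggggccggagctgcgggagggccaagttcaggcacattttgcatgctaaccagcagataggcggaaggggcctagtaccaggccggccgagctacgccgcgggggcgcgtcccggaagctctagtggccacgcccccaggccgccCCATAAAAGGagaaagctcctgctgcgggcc
Egr2, chr10:67537316-67537565: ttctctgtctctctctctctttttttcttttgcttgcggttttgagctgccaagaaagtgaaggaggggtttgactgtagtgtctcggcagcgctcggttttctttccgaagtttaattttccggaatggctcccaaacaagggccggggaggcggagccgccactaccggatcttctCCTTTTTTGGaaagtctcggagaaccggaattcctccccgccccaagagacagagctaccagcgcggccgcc
Dusp5, chr19:53528895-53529108: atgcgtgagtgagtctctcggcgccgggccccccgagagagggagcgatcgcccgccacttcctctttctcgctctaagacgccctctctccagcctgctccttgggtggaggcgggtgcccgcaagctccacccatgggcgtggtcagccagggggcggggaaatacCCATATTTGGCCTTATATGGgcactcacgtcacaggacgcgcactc
Dusp1, chr17:26508520-26508722: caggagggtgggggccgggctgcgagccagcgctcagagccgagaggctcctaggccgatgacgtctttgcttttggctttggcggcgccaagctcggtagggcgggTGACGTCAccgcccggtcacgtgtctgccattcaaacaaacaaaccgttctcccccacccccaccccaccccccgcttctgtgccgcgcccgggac
Fos, chr12:85473640-85473889: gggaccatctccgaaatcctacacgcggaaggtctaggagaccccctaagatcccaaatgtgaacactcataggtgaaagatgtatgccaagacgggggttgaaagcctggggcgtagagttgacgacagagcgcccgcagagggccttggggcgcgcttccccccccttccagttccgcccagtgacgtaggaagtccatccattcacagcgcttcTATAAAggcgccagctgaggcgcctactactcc

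Library totals ranged from 35101788 to 45401781 counts, and 3 counts were worth 0.0679 to 0.0857 CPM (counts scaled to a common library size after TMM normalization). Number 4 stood apart in either genotype, as already seen in earlier results of these data. Between 2 libraries of 1 genotype, chi-square per gene was 11.5 and 12.0 for numbers 2 and 3 and 39.7 to 49.6 for number 4 against them, so no library repeats another. Each result is therefore given for all libraries, for numbers 2 and 3 alone, and for the number 4 pair. B-cell markers were abundant, with the antigen receptor subunits Cd79a at 1437 to 1973 CPM and Cd79b at 1988 to 2604 CPM; whether the cells were naive was not checked. Tet2 transcripts were counted in every library (50.04 to 64.8 CPM in knockout, 56.8 to 83.3 CPM in wild type), and counts over all exons do not check a deletion. The knockout libraries held the Y-linked Kdm5d at 23.3 to 34.9 CPM, which was at most 0.0571 CPM in wild type, and Xist at 802 to 887 CPM against 1443 to 1537 CPM. Genotype and these sex-linked transcripts cannot be told apart.

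Naive B cells of both genotypes held many of these transcripts at high levels. Per length of gene, in RPKM (CPM per kilobase of exon), the order in wild type was led by Zfp36 at 661 ± 52.4 RPKM, Junb at 349 ± 49.7 RPKM and Fos at 239 ± 29.9 RPKM (mean ± SD, n = 3). Zfp36 thereby ranked 47 among all 41053 gene names in the table, and Junb 85. Ier5 (164 ± 13.5 RPKM), Dusp2 (148 ± 13.8 RPKM), Zfp36l1 (146 ± 6.87 RPKM) and Jund (136 ± 8.57 RPKM) came next. The ranges of mean ± SD overlapped between genes next to each other in this order, but not between Ier5 and Jund. Within the AP-1 family Fosb (89.4 ± 12.4 RPKM) and Jun (109 ± 24.2 RPKM) were lower than Junb. Egr1, among the best known immediate early genes, stood at 13.2 ± 2.57 RPKM and Egr2 at 3.203 ± 0.385 RPKM. At the low end were Rgs1 (0.963 ± 0.202 RPKM), Maff, Nr4a3, Nr4a2 and Atf3 (0.1798 ± 0.0678 RPKM). Fewer expressing cells and less RNA per cell cannot be told apart in these bulk samples.

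Most members were low in knockout libraries 2 and 3 and within or above the wild-type range in knockout library 4. Against wild-type libraries 2 and 3, those knockout libraries held Fosb at 22.1% of the wild-type mean, Klf4 at 25.1%, Junb at 30.4%, Dusp1 at 32.6% and Fos at 43.9%. In libraries 2 and 3, 22 of 30 tested members fell and 0 rose in knockout (edgeR quasi-likelihood test, adjusted p under 0.05), where 10.4% of all 13800 genes tested there fell and 13.6% rose. The 22 lay at 17.8 to 79.9% of the wild-type mean (median 59.1%). On simulated data the test of libraries 2 and 3 made 36 false calls among 226, a share above its nominal threshold. In the pair numbered 4, by contrast, knockout was above wild type for 24 of 30 members, against 49.9% of all 13604 genes tested, with ratios of 0.899 to 1.604 (median 1.11). On log2 CPM with a prior count of 2, which shrinks low values, 1 member (Atf3) was over 1.5-fold higher there and 0 were over 1.5-fold lower, where 4.37% and 4.20% of all genes were. By the plain ratio Nr4a2, at 1.52, also exceeded 1.5-fold. With 1 library per genotype there is no test.

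With all 6 libraries, edgeR called 0 of 30 members, where 0.404% of all 13604 genes were called. At an unadjusted p under 0.05 there were 2 of 30, against 13.4% of all genes. DESeq2 called 1 member, Zfp36l1, and limma-voom 0. The median log2 change was −0.33 over the 30 members and −0.0051 over all genes. Without knockout library 4 the median was −0.82 and 17 members fell, where 146 of all 13906 genes tested were called. Without wild-type library 4 only Zfp36l1 fell, where 900 of 13901 genes were called. Without knockout library 2 or 3 the median was −0.18 and −0.17. Knockout libraries 2 and 3 were the lowest 2 of the 6 for 24 of 30 members, against 14.5% of all genes. Knockout library 4 was above all 3 wild-type libraries for 18 members, within their range for 11 and below it for 1, Zfp36l1. Over all 13604 genes it was above that range for 3681, within it for 6195 and below it for 3728. It was thus within or above that range for 72.6% of all genes and for 96.7% of members.

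**Figure D1:**
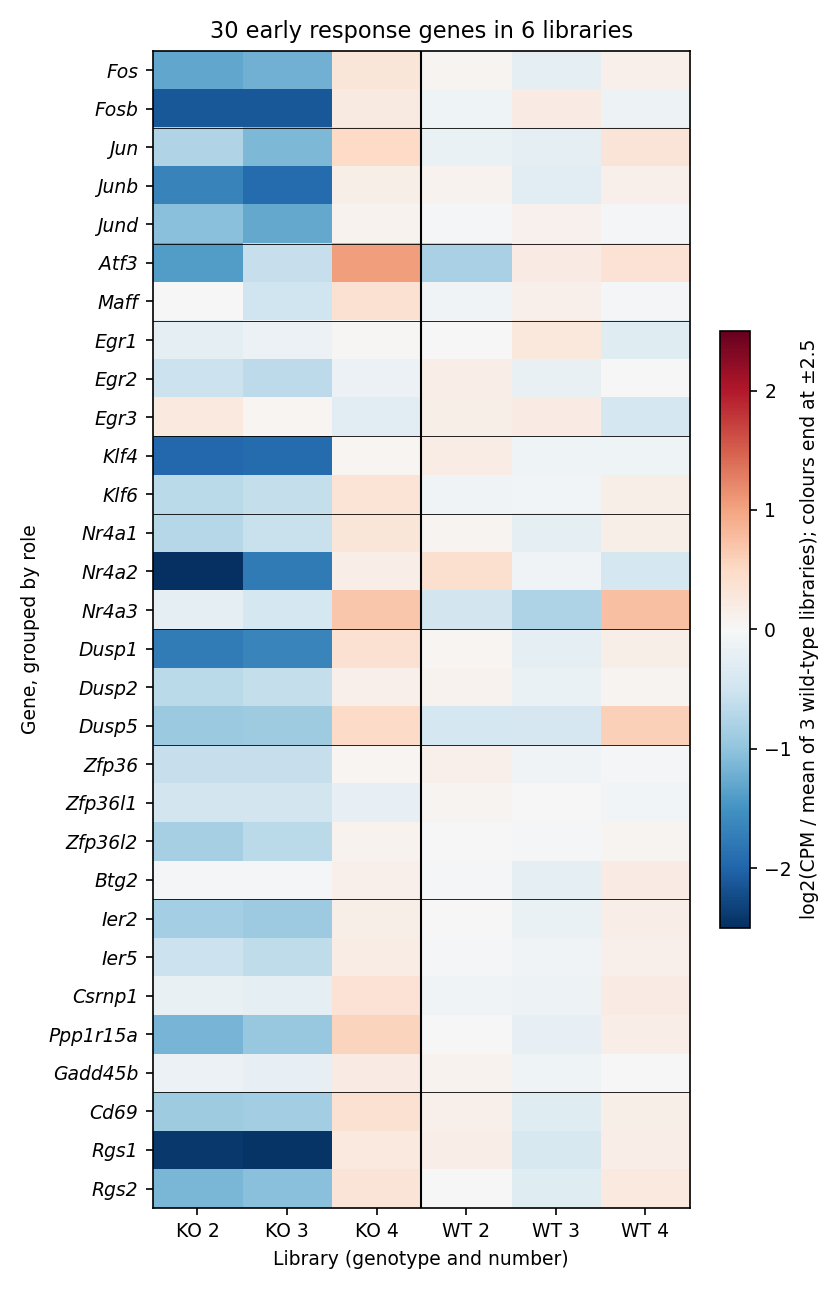
Colours give log2 of CPM relative to the mean of the 3 wild-type libraries (red higher, blue lower, ends at ±2.5) for the 30 tested genes (rows, grouped by role) in each library (columns). Knockout libraries 2 and 3 are blue for most genes, while knockout library 4 is within or above the wild-type range for most.

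The difference between these sets was itself tested, as the genotype effect in the pair numbered 4 minus that in libraries 2 and 3 (edgeR, 2 residual degrees of freedom). It was positive and past the threshold for 15 of 30 members and negative for 0, where 0.588% of all 13604 genes were positive and 0.603% negative. The median difference was 0.74 on the log2 scale over the members and −0.011 over all genes. Here and in the test of libraries 2 and 3, a fit without 1 library numbered 2 or 3 leaves 1 library in a group. It also has fewer residual degrees of freedom, so calls gained or lost in it do not measure how firm a result is. Leaving out any 1 library numbered 2 or 3 left 13 to 19 members past the threshold. Without wild-type library 2 the calls of Nr4a2, Dusp2, Zfp36, Zfp36l2 and Ier5 were lost (edgeR adjusted p = 0.202, 0.147, 0.149, 0.0598 and 0.151), and 36 of all genes were called, against 162 with all libraries. Junb passed without any 1 of the 4 libraries numbered 2 or 3 (edgeR adjusted p at most 0.00898), although not with all of them. Jun passed without knockout library 2 or 3, Egr1 without knockout library 2 or 3 or wild-type library 2, Nr4a1 without knockout or wild-type library 3, and Cd69 without wild-type library 2 or 3 (edgeR adjusted p at most 0.0394).

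**Figure D2:**
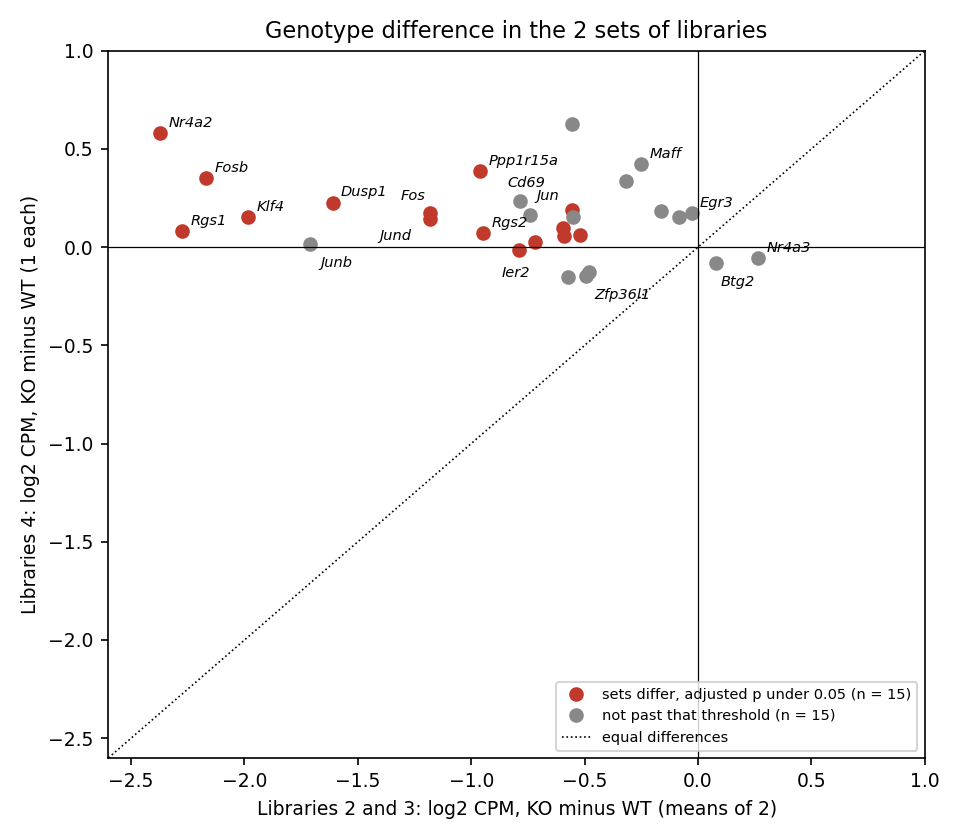
Each point is a tested gene, with its log2 CPM difference (knockout minus wild type) in libraries 2 and 3 on the x axis and in the pair numbered 4 on the y axis; red marks the 15 genes whose difference between the sets passed the test, and the dotted line marks equal differences. Of the 30 points, 28 lie left of 0. In height 24 of the 30 lie above 0, and heights run from −0.15 (Egr2) to 0.63 (Atf3). Fosb is at −2.17 in libraries 2 and 3 and 0.35 in the pair.

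The FOS subunits, which pair with JUN proteins to bind DNA, followed this pattern where they were expressed. Values are in the order of libraries 2, 3 and 4 of each genotype here and in what follows. Fos (chromosome 12, 85473890 to 85477273, GRCm38) was at 228, 243 and 694 CPM in knockout against 592, 483 and 615 CPM in wild type. Knockout libraries 2 and 3 were under every other library, while knockout 4 was the highest of all 6, so that the genotypes overlapped. The level was 388 ± 265 CPM (mean ± SD, n = 3) for the knockout and 563 ± 70.3 CPM (n = 3) for the wild type. In libraries 2 and 3 Fos fell by 1.19 on the log2 scale (SE 0.09, edgeR adjusted p = 4.60e-05), and over all libraries the difference was −0.54 (SE 0.48, edgeR adjusted p = 0.671). Fosb (chromosome 7, 19302721 to 19310045), a paralog induced with Fos, was at 77.4, 77.4 and 391 CPM in knockout against 311, 389 and 306 CPM in wild type. It fell by 2.18 on the log2 scale (SE 0.10, edgeR adjusted p = 1.87e-05) in libraries 2 and 3, and knockout 4 matched the highest wild-type library. Fosl2 was near the floor of 3 counts in every library.

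JUN subunits, which pair with FOS or with each other, were all lower in knockout libraries 2 and 3. Junb (chromosome 8, 84976909 to 84978748), often described as a restrained activator, was at 201, 169.9 and 714 CPM in knockout against 683, 538 and 706 CPM in wild type. Knockout 2 and 3 were far below every other library, and knockout 4 was close to wild-type 4. Junb fell by 1.72 on the log2 scale (SE 0.16, edgeR adjusted p = 0.00517) in libraries 2 and 3, and its difference between the sets was 1.73 (SE 0.27, edgeR adjusted p = 0.0829). Jund (chromosome 8, 70697739 to 70700616), the subunit usually described as constantly expressed, was at 191, 162 and 416 CPM in knockout against 379, 421 and 377 CPM in wild type. It fell by 1.18 on the log2 scale (SE 0.08, edgeR adjusted p = 1.10e-05), with the same grouping of libraries. Jun (chromosome 4, 95049034 to 95052222) was at 208, 159.8 and 491 CPM in knockout against 311, 298 and 438 CPM in wild type. Here wild-type 4 was also above wild-type 2 and 3, and the fall of Jun in libraries 2 and 3, by 0.73 on the log2 scale (SE 0.13, edgeR adjusted p = 0.0219), was lost without wild-type library 2 or 3 (edgeR adjusted p = 0.188 and 0.142). Exons of Jun share bases with Junos, and those of Jund with Gm11175, on the opposite strand; these had 98 and 0 counts in all libraries together.

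**Figure D3:**
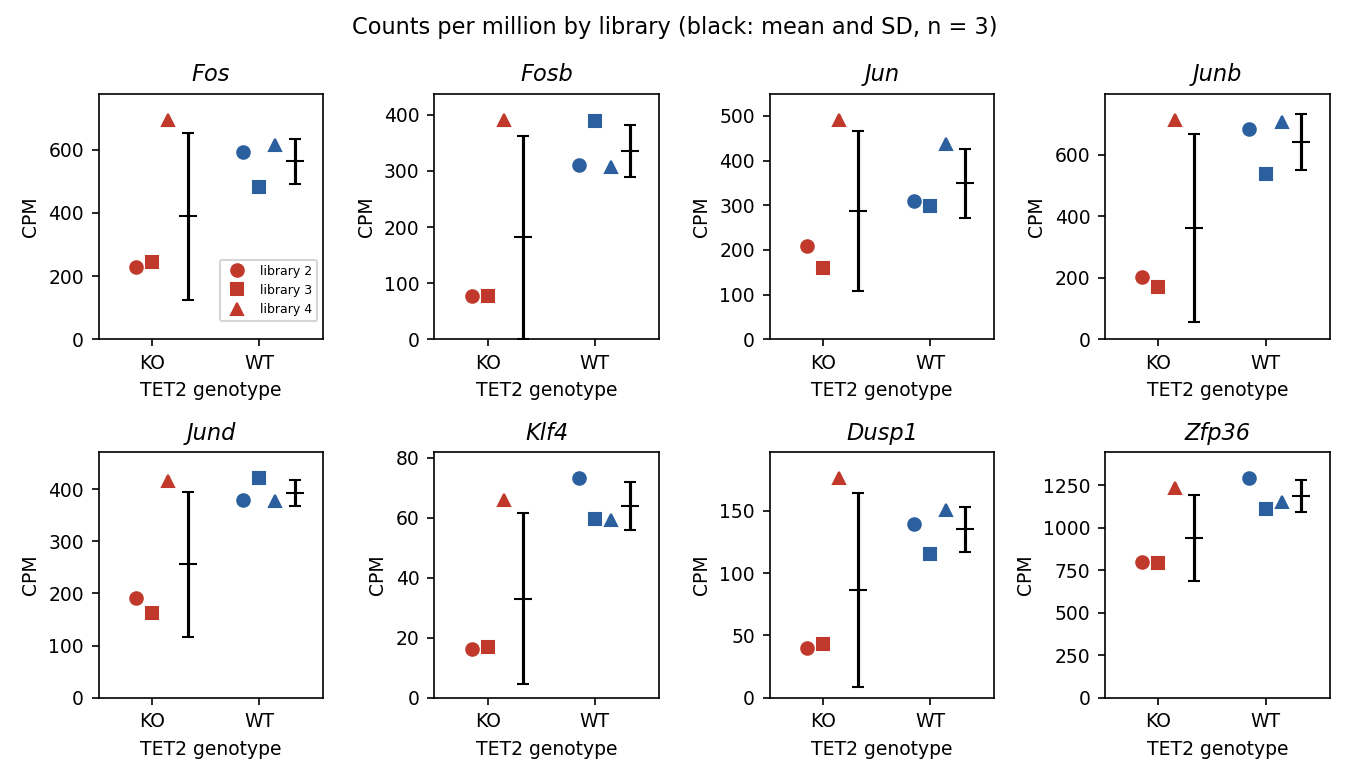
CPM (linear axis from 0) of 8 genes in each library, by genotype (red knockout, blue wild type) and library number (circle 2, square 3, triangle 4), with the mean and SD of 3 libraries in black. The knockout triangle sits among or above the wild-type points in each panel, and the wide knockout SD comes from the gap between it and the other 2 libraries.

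The ATF and MAF members, small leucine-zipper proteins that join AP-1 or MAF complexes, were scarce. Atf3, a stress-induced repressor, was at 0.136, 0.241 and 0.733 CPM in knockout against 0.204, 0.409 and 0.457 CPM in wild type, or 6 to 29 counts. Maff, a MAF protein without an activation domain, was at 1.88, 1.32 and 2.43 CPM in knockout against 1.74, 2.05 and 1.799 CPM in wild type. Neither passed a test in any set, with log2 differences of −0.70 and −0.24 in libraries 2 and 3 (edgeR adjusted p = 0.376 and 0.5298). Over all libraries their differences of 0.05 and 0.01 turned negative with a term for the libraries numbered 4, and that of Maff also with scaling to library size only (−0.04).

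Of the EGR zinc-finger factors, which relay antigen receptor signals in lymphocytes, 2 of 3 fell in libraries 2 and 3. Of all genes 10.4% fell there. Egr1 was at 50.4, 53.3 and 60.9 CPM in knockout against 58.6, 71.1 and 48.1 CPM in wild type. Its libraries overlapped, and wild-type 4 was the lowest of all. Egr1 fell by 0.32 on the log2 scale (SE 0.09, edgeR adjusted p = 0.0188) in libraries 2 and 3, but not without wild-type library 3 (−0.18, edgeR adjusted p = 0.142). Egr2 (chromosome 10, 67535475 to 67542188) was at 7.52, 6.93 and 9.83 CPM in knockout against 12.2, 9.55 and 10.9 CPM in wild type, with knockout 4 still under wild-type 2 and 4. It fell by 0.59 on the log2 scale (SE 0.14, edgeR adjusted p = 0.00623) in libraries 2 and 3, a call lost without wild-type library 2 (edgeR adjusted p = 0.12). Egr3 was at 65.99, 57.2 and 46.2 CPM in knockout against 61.4, 63.98 and 40.9 CPM in wild type, and both libraries numbered 4 were under the other 4. Its genotype differences were −0.02 for libraries 2 and 3 against 0.18 for number 4.

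Both KLF factors were low in knockout libraries 2 and 3. Klf4 (chromosome 4, 55527143 to 55532466), known in B cells as a brake on proliferation, was at 16.4, 16.9 and 65.8 CPM in knockout against 73.1, 59.6 and 59.2 CPM in wild type. Knockout 4 lay among the wild-type values, while knockout 2 and 3 were far below. Klf4 fell by 1.99 on the log2 scale (SE 0.10, edgeR adjusted p = 2.21e-07) in libraries 2 and 3, and its difference between the sets, 2.15 (SE 0.16, edgeR adjusted p = 3.59e-05), had the smallest adjusted p of all members. Klf6 (chromosome 13, 5861489 to 5870393), a broadly expressed early gene, was at 186, 197 and 376 CPM in knockout against 279.5, 283 and 330.04 CPM in wild type. It fell by 0.55 on the log2 scale (SE 0.06, edgeR adjusted p = 1.71e-05), with knockout 4 the highest library.

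NR4A orphan nuclear receptors, markers of recent antigen receptor signalling, did not move as 1 group. Nr4a1 (chromosome 15, 101266846 to 101274792), also called Nur77, was at 57.9, 64.2 and 116 CPM in knockout against 99.3, 80.3 and 104 CPM in wild type. It fell by 0.56 on the log2 scale (SE 0.11, edgeR adjusted p = 0.00948) in libraries 2 and 3, while its difference between the sets was 0.71 (SE 0.19, edgeR adjusted p = 0.136). Nr4a2 was at 0.136, 0.361 and 1.39 CPM in knockout against 1.63, 1.16 and 0.914 CPM in wild type, or 6 and 15 counts in the 2 low libraries. It fell by 2.49 on the log2 scale (SE 0.41, edgeR adjusted p = 5.77e-04), and it was the least abundant of the members that fell. Nr4a3 was at 2.59, 2.26 and 5.004 CPM in knockout against 2.24, 1.796 and 5.197 CPM in wild type, so that both libraries numbered 4 were high in either genotype. Its genotype difference was 0.27 (SE 0.22, edgeR adjusted p = 0.408) in libraries 2 and 3.

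The DUSP phosphatases, which remove phosphate from MAP kinases and so close the signal that induces them, all fell in libraries 2 and 3. Of all genes 10.4% fell there. Dusp1 (chromosome 17, 26505590 to 26508519), which acts on p38 and JNK, was at 40.2, 42.9 and 176 CPM in knockout against 139.5, 115 and 150.4 CPM in wild type. Knockout 2 and 3 were far under the remaining libraries, and knockout 4 was the highest. Dusp1 fell by 1.62 on the log2 scale (SE 0.09, edgeR adjusted p = 6.29e-06), and the difference between the sets was 1.84 (SE 0.15, edgeR adjusted p = 8.13e-04). Dusp2 (chromosome 2, 127336159 to 127338376), a phosphatase of activated lymphocytes, was at 188, 197 and 324 CPM in knockout against 315, 266 and 312 CPM in wild type. It fell by 0.59 on the log2 scale (SE 0.08, edgeR adjusted p = 2.64e-04) in libraries 2 and 3. Dusp5 (chromosome 19, 53529109 to 53542431), a nuclear phosphatase of ERK, was at 4.79, 4.94 and 12.6 CPM in knockout against 6.75, 6.84 and 13.8 CPM in wild type, with both libraries numbered 4 high. It fell by 0.48 on the log2 scale (SE 0.15, edgeR adjusted p = 0.0248), a call lost without knockout library 2 or wild-type library 2 or 3 (edgeR adjusted p = 0.104, 0.1002 and 0.0921) and with DESeq2 (adjusted p = 0.0562).

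Of the genes that limit mRNA lifetime, those of the ZFP36 family were lower in knockout libraries 2 and 3 and Btg2 was not. Zfp36 (chromosome 7, 28376784 to 28379255), which binds AU-rich elements and targets cytokine and early gene mRNAs, was at 797, 792 and 1232 CPM in knockout against 1291, 1113 and 1150.05 CPM in wild type. The 2 low libraries were again knockout 2 and 3, and Zfp36 fell by 0.60 on the log2 scale (SE 0.08, edgeR adjusted p = 1.00e-04) there. Zfp36l2 (chromosome 17, 84183931 to 84187947), a paralog that restrains the lymphocyte cell cycle, was at 147, 163 and 278 CPM in knockout against 258, 251 and 274 CPM in wild type and fell by 0.72 on the log2 scale (SE 0.06, edgeR adjusted p = 2.43e-06). Zfp36l1 (chromosome 12, 80107760 to 80113013), with the same RNA-binding fingers, was at 317, 316 and 377 CPM in knockout against 458, 435 and 417 CPM in wild type. It was the 1 tested member whose genotypes did not overlap over all libraries, where 8.28% of all genes were separated in that direction and 10.2% in the other. Its level was 337 ± 34.8 CPM (mean ± SD, n = 3) for the knockout and 437 ± 20.5 CPM (n = 3) for the wild type. The log2 change was −0.37 (SE 0.09, edgeR adjusted p = 0.154) over all libraries, and it passed with a term for the libraries numbered 4 (edgeR adjusted p = 0.0246, a fit in which 1.81% of all genes fell) and without wild-type library 4 or knockout library 4 (0.0351 in each). In libraries 2 and 3 it fell by 0.49 on the log2 scale (SE 0.06, edgeR adjusted p = 5.28e-05). Exons of Zfp36l1 share 1672 bases with Gm26669 of the other strand, and reads of the 2 cannot be told apart. Btg2, an antiproliferative partner of the deadenylase complex, ranged from 261 to 352 CPM, with log2 differences of 0.08 for libraries 2 and 3 against −0.08 for number 4.

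Among the IER and stress genes, 3 of 5 tested members fell in libraries 2 and 3, beside 10.4% of all genes. Ier5 (chromosome 1, 155096361 to 155099636), a regulator of heat-shock factor, was at 370.3, 344 and 614 CPM in knockout against 519, 506 and 588 CPM in wild type and fell by 0.52 on the log2 scale (SE 0.06, edgeR adjusted p = 5.14e-05). Ier2 (chromosome 8, 84661331 to 84662852), a nuclear early response protein, was at 99.4, 96.2 and 199 CPM in knockout against 178, 161 and 200.3 CPM in wild type and fell by 0.79 on the log2 scale (SE 0.06, edgeR adjusted p = 7.32e-07). Ppp1r15a (chromosome 7, 45522916 to 45526268), or GADD34, which restores translation after stress, was at 114, 133 and 379 CPM in knockout against 259, 223 and 290.3 CPM in wild type. For these genes knockout 2 and 3 were below all others, and for Ppp1r15a knockout 4 was well above every wild-type library. Ppp1r15a fell by 0.96 on the log2 scale (SE 0.09, edgeR adjusted p = 2.35e-04) in libraries 2 and 3. Csrnp1 ranged from 103 to 154 CPM and Gadd45b, a stress sensor that binds MAP kinase kinases, from 23.6 to 31.2 CPM; in both, knockout 2 and 3 were the lowest libraries, without passing a test (edgeR adjusted p = 0.287 and 0.174 in libraries 2 and 3).

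Surface and G-protein regulators that mark recent activation were low in the same 2 libraries. Rgs1, which shortens chemokine receptor signals in B cells, was at 1.25, 1.23 and 7.91 CPM in knockout against 7.52, 5.07 and 7.48 CPM in wild type. Knockout 2 and 3 were at 19.7% of the wild-type mean of the same numbers, and Rgs1 fell by 2.34 on the log2 scale (SE 0.22, edgeR adjusted p = 8.79e-06). Rgs2 (chromosome 1, 143999338 to 144004161), a regulator of Gq-coupled receptors, was at 56.9, 60.4 and 156 CPM in knockout against 125, 102 and 148 CPM in wild type and fell by 0.95 on the log2 scale (SE 0.09, edgeR adjusted p = 2.58e-04). Cd69 (chromosome 6, 129267324 to 129275369), a lectin that holds activated lymphocytes in the organ by removing the receptor for sphingosine 1-phosphate, was at 79.3, 80.1 and 190.1 CPM in knockout against 159.6, 118 and 162 CPM in wild type. Cd69 had knockout 2 and 3 below all others, with a log2 difference of −0.80 (SE 0.18, edgeR adjusted p = 0.0679) in libraries 2 and 3 that passed in DESeq2 (adjusted p = 0.00158) and in each fit without 1 library (edgeR adjusted p at most 0.0142).

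For the members, library 4 differed from libraries 2 and 3 in the knockout far more than in the wild type. Knockout 4 was over 1.5-fold above the mean of knockout 2 and 3 for 23 of 30 members, against 3.79% of all genes, with a median log2 difference of 1.03. It was below that mean for 1 member, Egr3, against 52.8% of all genes. Rgs1 was 6.39-fold, Fosb 5.05-fold and Dusp1 4.24-fold higher. In wild type the same comparison gave 2 of 30 members (Nr4a3 and Dusp5), against 3.77% of all genes, with a median of 0.21. Rgs1 was 1.19-fold, Fosb 0.874-fold and Dusp1 1.18-fold the level of wild-type 2 and 3. These levels are a description; the test of the difference between the sets is the one given above.

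Heat-shock genes, chaperones that rise with warming or protein damage, moved with the library number in both genotypes instead. Of 15 tested, 12 were over 1.5-fold higher in knockout 4 (median log2 difference 0.93) and 14 in wild-type 4 (median 1.21). Over all genes these shares were 3.79% and 3.77%. Their summed level was 2527, 2593 and 3790 CPM in knockout against 1879, 1960.05 and 3701 CPM in wild type. The difference between the sets was positive and past the threshold for 0 heat-shock genes. It was negative and past it for 2 (Hspe1 and Ahsa1, edgeR adjusted p = 0.0237 and 0.0497). Of the early response genes 15 were positive, and of all genes 0.588% were positive and 0.603% negative. In libraries 2 and 3, 9 heat-shock genes rose and 2 fell in knockout, beside 13.6% and 10.4% of all genes. The part of these genes' differences in those of the early response genes was not tested.

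**Figure D4:**
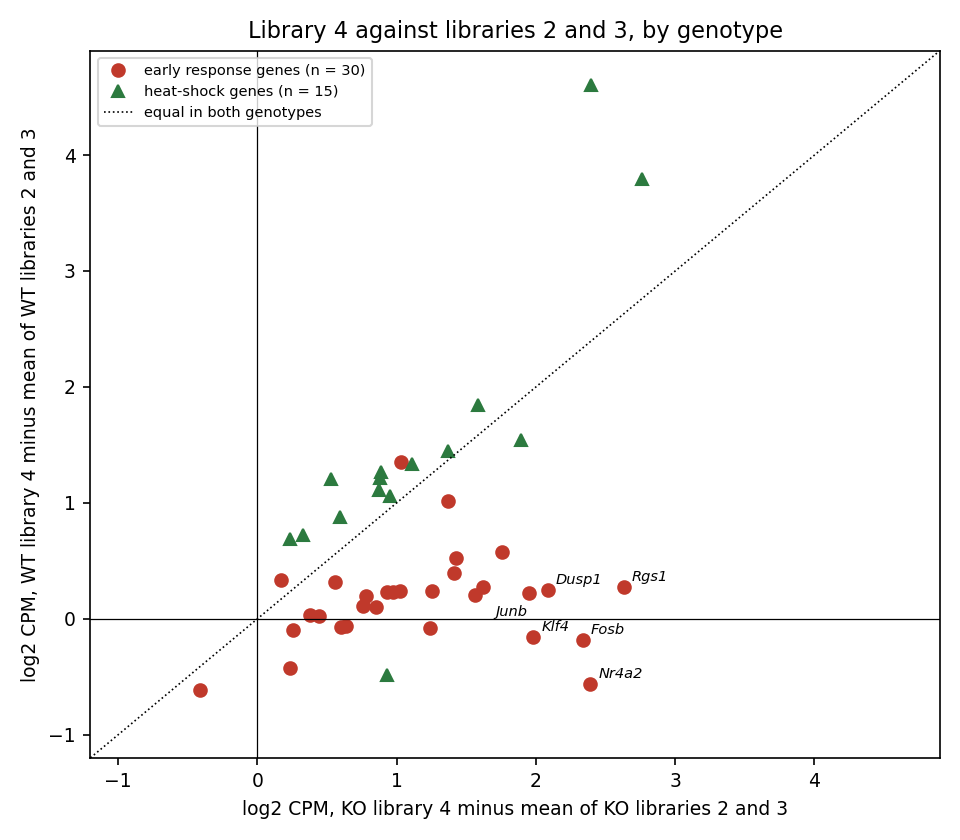
Each point is a gene, with the log2 CPM difference of library 4 from the mean of libraries 2 and 3 in knockout (x axis) and in wild type (y axis); red circles are the 30 early response genes, green triangles the 15 heat-shock genes, and the dotted line marks equal differences. Circles spread to the right at low height (median 1.03 in knockout, 0.21 in wild type), while most triangles lie near the dotted line or above it.

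Other early response genes, from a list of 31 that are not members, were also low in knockout libraries 2 and 3. That list too was chosen with earlier results of these data known. Of 29 tested, 16 fell and 0 rose there, beside 10.4% and 13.6% of all genes. The difference between the sets was positive for 10 and negative for 1, beside 0.588% and 0.603% of all genes (the negative one was Id3, edgeR adjusted p = 0.0397). Plk2, a kinase induced by growth signals, was at 2.43, 2.55 and 16.4 CPM in knockout against 16.2, 13.4 and 17.96 CPM in wild type. Sik1, a kinase induced by cAMP, was at 33.3, 39.4 and 126 CPM in knockout against 77.4, 82.97 and 100.05 CPM in wild type. In both, knockout 2 and 3 were below all the other libraries, and the differences between the sets were 2.44 (SE 0.22, edgeR adjusted p = 1.42e-05) and 1.48 (SE 0.13, edgeR adjusted p = 9.29e-05). Klf2, a factor of lymphocyte quiescence and recirculation, was at 355, 336 and 541 CPM in knockout against 641, 639 and 558 CPM in wild type, with a difference between the sets of 0.84 (SE 0.11, edgeR adjusted p = 7.70e-04). Myc, a driver of cell growth, was at 84.1, 90.1 and 143 CPM in knockout against 112, 128 and 110.1 CPM in wild type, with a difference between the sets of 0.85 (SE 0.12, edgeR adjusted p = 0.00245). Knockout 2 and 3 were also the lowest libraries for Klf2 and Myc.

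Of the MAP kinase list and of the SRF and CREB list, 0 genes passed edgeR's test of the difference between the sets, which 1.19% of all genes passed, and 3 of each had an unadjusted p under 0.05. Of 20 genes of the MAP kinase route, 3 rose and 3 fell in libraries 2 and 3, beside 13.6% and 10.4% of all genes, and 0 differed between the sets. Of 14 genes of SRF, its cofactors and CREB, 0 rose and 3 fell (Crtc3, Crebbp and Ep300, named after their values were seen), and 0 differed between the sets. Among 13 tested further AP-1 relatives such as the BATF, MAF and BACH genes, 1 rose (Nfe2l2, named after its value was seen) and 1 fell (Atf4) in libraries 2 and 3. Atf4, a regulator of the integrated stress response, was at 273, 272 and 414 CPM in knockout against 435, 374 and 407 CPM in wild type, and its difference between the sets was 0.59 (SE 0.12, edgeR adjusted p = 0.0289). Over all libraries edgeR called 0 genes of these lists, beside 0.404% of all genes. An unadjusted p under 0.05 was found for 2 of 14 in the SRF and CREB list and 2 of 13 AP-1 relatives. It was also found for 6 of 29 other early genes and 0 of 20 in the MAP kinase list, beside 13.4% of all genes.

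Marker lists of several cell types were highest in knockout libraries 2 and 3. The T-cell list summed to 65.9, 54.7 and 49.2 CPM in knockout against 50.6, 46.9 and 47.5 CPM in wild type, nearly all from Lck, which some B cells also express; Cd3e was at most 0.0722 CPM. Plasma cell genes summed to 43.9, 32.2 and 20.6 CPM in knockout against 19.98, 23.4 and 17.4 CPM in wild type. The stroma list summed to 424, 424 and 309 CPM in knockout against 354, 381 and 324 CPM in wild type, nearly all from Pecam1 (307 to 422 CPM), while Col1a1 was at most 0.0455 CPM and Cdh5 at most 1.54 CPM. The 9 B-cell genes in the table summed to 15548, 15186 and 13562 CPM in knockout against 13208, 13638 and 14029.6 CPM in wild type. Myeloid genes (7 of 8 in the table) summed to 8.92 to 15.02 CPM in knockout against 14.02 to 16.9 CPM in wild type. The NK list summed to 1.29 to 2.31 and 1.66 to 2.001 CPM, the dendritic list to 2.89 to 3.59 and 2.13 to 2.52 CPM, and the erythroid and platelet list to 8.95 to 15.2 and 7.18 to 19.6 CPM. Mitochondrially encoded transcripts summed to 26775, 22967 and 22822 CPM in knockout against 18658, 19891 and 26920.1 CPM in wild type. Both knockout values of libraries 2 and 3 exceeded both wild-type values of those numbers for 10 of the 10 tested, beside 32.3% of all genes. Of these 10, 5 rose (edgeR), beside 13.6% of all genes. Their difference between the sets was positive for 0 of 10 (median −0.56), beside 6589 of all 13604 genes. It was opposite in sign to most members and passed the test, as negative, for 1, mt-Co1, beside 0.603% of all genes. No marker was at 0 in all 6 libraries. The part of these transcripts in the results was not tested.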

How the data were processed

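RNA of splenic naive B cells was sequenced after extraction with Trizol and an RNeasy kit and a stranded mRNA preparation, per the labels' protocols. The authors' deposited counts are whole-number fragment counts per gene name, made with featureCounts 1.5.1 over exons of GENCODE vM3 with no strand option, per the file headers. STAR 2.3.0e and GRCm38.p3 are named in the submitters' processing notes. Reads of overlapping genes on opposite strands cannot be told apart. The deposited exon length per gene, another value of that table, was used for RPKM. A further 6 count columns could be tied to none of the samples and were not used.

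Members and lists were chosen with earlier results of these data known. Genes were filtered (filterByExpr, minimum count 10), normalized with TMM and tested over all genes with edgeR 4.0.16 (quasi-likelihood, robust; R 4.3.3), p-values adjusted by Benjamini-Hochberg, threshold 0.05. The fits used all 6 libraries, the 4 numbered 2 and 3, or genotype, number 4 and their product. Differences in the pair numbered 4 are of log2 CPM with a prior count of 2. The fits were tested on simulated data, in which number 4 did not differ from numbers 2 and 3 beyond the changes put in. The simulated spread came from the fit with genotype, number 4 and their product. False calls were 17 of 210 for all libraries, 36 of 226 for libraries 2 and 3 and 20 of 177 for the difference between the sets. Their share was above the nominal threshold in each fit, most of all for libraries 2 and 3. Recovery of small changes in the simulation was lowest for the difference between the sets. Differences of number 4 add to the spread in the real fit of all libraries. The simulated false calls and recovery therefore do not describe that fit. DESeq2 1.42.0 and limma 3.58.1 (voom), other filters, scalings and thresholds, a replicate block, a term for number 4 and leaving out each library were alternatives. Values by library were printed for the 2 most abundant members of each role, for every member called in a fit and for the 3 with the largest difference between the sets. Genes outside the set were named where called, up to 4 a list by smallest p, besides Tet2. Promoters were printed for members with a CArG box, and for Fos and Dusp1 as an addition. Coordinates are those of the table.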

Additional observations from a re-analysis of the deposited data

Results flagged for a closer look

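The genotype effect differed between the pair numbered 4 and libraries 2 and 3 for 15 of the 30 tested genes, by the test of that difference over all genes (edgeR adjusted p under 0.05), where 1.19% of all 13604 genes passed. On the log2 scale the effect in the pair minus that in libraries 2 and 3 was 1.36 for Fos, 2.53 for Fosb and 1.32 for Jund among the AP-1 subunits. For the other transcription factors it was 2.15 for Klf4, 0.74 for Klf6 and 3.09 for Nr4a2. The phosphatases Dusp1 and Dusp2 gave 1.84 and 0.65, and the mRNA decay factors Zfp36 and Zfp36l2 gave 0.70 and 0.74. It was 0.78 for Ier2, 0.58 for Ier5, 1.35 for Ppp1r15a, 2.42 for Rgs1 and 1.03 for Rgs2. All 15 were positive, as were 0.588% of all genes, while 0.603% were negative. Only 1 library of each genotype carries the number 4, so the spread within that pair was not measured.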

How the results depend on the processing

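Over all libraries, 1 member was called without the filter, with DESeq2 and with a term for number 4, each time Zfp36l1, and 0 to 17 when 1 library was left out (17 without knockout library 4). The median change then ran from −0.82 to −0.17. In libraries 2 and 3 the alternatives gave 20 to 23 members, and for the difference between the sets 13 to 21. That difference cannot be estimated without a library numbered 4. Calls over all genes depended more on the fit: 55 over all libraries became 262 without the filter, 349 with DESeq2, 85 with the block, 599 with the term and 17 to 900 without 1 library; 162 for the difference became 715 without the filter, 93 with a minimum count of 50, 60 with limma-voom, 482 at a threshold of 0.10 and 36 to 796 without 1 library. In libraries 2 and 3, 3307 became 1412 to 3311 without 1 library and 2522 to 4377 under the other alternatives. The causes were not tested.

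Small differences over all libraries turned negative: Atf3 with limma-voom (−0.21), the replicate block (−0.0747) and the term (−0.0868); Maff with library size only (−0.0366), limma-voom (−0.0338), the block (−0.0199) and the term (−0.0137); Egr3 (−0.0249) and Btg2 (−0.0257) with library size only; Csrnp1 with library size only (−0.0316), limma-voom (−0.00493), the block (−0.0056) and the term (−0.00549). With 1 library left out, signs changed within −0.92 to 0.0033 for Jun, −0.90 to 0.45 for Atf3, −0.21 to 0.21 for Maff, −0.24 to 0.0324 for Egr1, −0.15 to 0.15 for Egr3, −0.33 to 0.70 for Nr4a3, −0.90 to 0.13 for Dusp5, −0.0889 to 0.14 for Btg2, −0.20 to 0.12 for Csrnp1 and −0.18 to 0.0368 for Gadd45b, and in libraries 2 and 3 within −0.13 to 0.0784 for Egr3 and −0.0195 to 0.18 for Btg2.

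Library numbers were shared by both genotypes, but the pairs' deviations correlated at 0.0857, 0.220 and 0.394, and knockout 2 correlated best with wild-type 3 (0.239). Since not every pair was above 0.1, the numbers were not taken as pairs, although knockout 4 correlated best with wild-type 4. With a replicate block, 0 members were called over all libraries, 23 in libraries 2 and 3, and 13 for the difference between the sets (11 of them among the 15), where 52 of all genes were called.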
